A study of Mus musculus with 2 samples.

Results

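The genes described here are 9 genes of translation control at the synapse: the fragile X family members Fmr1, Fxr1 and Fxr2, the FMRP partners Cyfip1 and Cyfip2, the tuberous sclerosis genes Tsc1 and Tsc2, the kinase gene Mtor and the translational repressor gene Eif4ebp2. They were chosen by symbol, and the 9 symbols each matched a single gene among the 55536 mouse genes of the deposited gene tables. Total RNA had been sequenced from hippocampal tissue of male B6CASTF1/J mice, F1 hybrids of C57BL/6J and CAST/EiJ, aged 36 days. The labels name no treatment and describe 1 group with biological replicates 1 and 2, whose libraries were prepared from 300 ng of RNA to which ERCC spike-ins had been added. The labels call the tissue a layer of hippocampus without naming the layer. The libraries carry different biosamples but the same donor identifier, and whether they come from different animals is not stated. Differences of animal, tissue sample and technique between them therefore cannot be told apart. The p-values here measure only departure from counting error between these libraries, and not a spread between samples or animals. As there is no other group, conditions could not be compared, and no test with replicated groups could be made.

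FMRP, the product of Fmr1, is an RNA-binding protein that represses the translation of many neuronal mRNAs, among them mRNAs of synaptic proteins, and its loss causes fragile X syndrome. It can act through CYFIP1, which binds the cap-binding factor eIF4E, and which like CYFIP2 is also a subunit of the WAVE complex that drives actin assembly. The kinase mTOR raises cap-dependent translation, in part by phosphorylating the eIF4E-binding proteins, and the TSC1-TSC2 complex holds it back by switching off the small GTPase Rheb.

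The genes were read through 3 deposited tables per library: a gene table, a first transcript table with the same columns, and the second transcript table, which came from another estimate. The libraries held 28665109 and 29633722 expected counts over genes in replicates 1 and 2, and 14879 genes reached 1 TPM (TPM is a length-corrected measure of how large a part of the RNA a transcript makes up) in both. Excitatory neuron markers were abundant, with a summed TPM of 2613.04 and 2613.43 in replicates 1 and 2. The libraries differed in the levels of several marker sets. The summed TPM of 6 choroid plexus markers was 4.56 in replicate 1 and 185.02 in replicate 2, that of 4 dentate granule cell markers was 113.84 and 141.80, and that of 4 CA1 markers was 254.11 and 211.89. At an adjusted p under 0.05 by an exact binomial test on scaled counts, all 4 dentate markers were higher in replicate 2 and all 4 CA1 markers in replicate 1. Of 4 markers each, 2 of interneurons and 2 of oligodendrocytes were higher in replicate 1, 2 of astrocytes were higher in replicate 2, and none of microglia passed. Of the 4 excitatory neuron markers, 2 were higher in replicate 1 and 1 in replicate 2. Of 3 endothelial markers 1 was higher in replicate 1 and 1 in replicate 2, and none of the 3 markers each of the neighbouring striatum and thalamus passed. In bulk tissue, fewer cells of a type and less RNA per cell cannot be told apart.

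The coding segments in which the members' transcripts differ are shown first, because the isoform results refer to them. Among annotated transcripts with a complete coding sequence, 14 such segments were found in 5 of the 9 genes. Of these, 7 are whole exons, and 7 are the first or inner bases of an exon that other transcripts leave out. Each of the 7 part-exon segments ends in AG, the dinucleotide of a 3′ splice site, and 11 of the 14 segments are a whole number of codons long. All sequences are mm10 reference sequence from GENCODE M21 transcripts, given 5′ to 3′ on the strand of the gene; alleles of CAST/EiJ are not shown. Fmr1, on the plus strand of the X chromosome, has exon 12 as a whole and the start of exon 15, numbered in the transcript Fmr1-201, and capitals mark the final AG of the exon 15 segment.
Fmr1 exon 12, 63 bases, chrX:68705861-68705923: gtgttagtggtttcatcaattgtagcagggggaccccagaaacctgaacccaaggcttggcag
Fmr1 start of exon 15, 75 bases, chrX:68712231-68712305: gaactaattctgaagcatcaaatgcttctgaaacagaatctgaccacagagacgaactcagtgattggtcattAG
Fxr1, on the plus strand of chromosome 3, has a stretch within exon 12 that begins with GT and ends with AG, both in capitals. It also has an exon 15 in which 9 of 26 whole codons code for arginine, and these codons are in capitals. An exon of 92 bases, not a whole number of codons, comes after it.
Fxr1 part of exon 12, 87 bases, chr3:34058082-34058168: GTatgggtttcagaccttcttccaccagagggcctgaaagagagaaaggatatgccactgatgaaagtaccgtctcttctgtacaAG
Fxr1 exon 15, 81 bases, chr3:34064974-34065054: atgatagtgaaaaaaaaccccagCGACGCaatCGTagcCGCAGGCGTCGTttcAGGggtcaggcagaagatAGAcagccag
Fxr1 exon 16, 92 bases, chr3:34068161-34068252: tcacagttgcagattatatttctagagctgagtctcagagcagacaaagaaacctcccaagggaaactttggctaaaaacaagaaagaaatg
Cyfip1, on the plus strand of chromosome 7, has a pair of neighbouring exons of which its complete coding transcripts carry either the first or the second. Capitals mark the 80 bases that are identical when the exons are aligned to each other, 54.1% of the 148-base exon and 51.9% of the 154-base exon.
Cyfip1 exon 16 of Cyfip1-202, 148 bases, chr7:55897825-55897972: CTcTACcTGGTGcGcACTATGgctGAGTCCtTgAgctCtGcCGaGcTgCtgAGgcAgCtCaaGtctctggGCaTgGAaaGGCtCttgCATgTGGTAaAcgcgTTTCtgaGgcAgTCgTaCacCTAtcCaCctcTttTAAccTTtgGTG
Cyfip1 exon 16 of Cyfip1-201, 154 bases, chr7:55898238-55898391: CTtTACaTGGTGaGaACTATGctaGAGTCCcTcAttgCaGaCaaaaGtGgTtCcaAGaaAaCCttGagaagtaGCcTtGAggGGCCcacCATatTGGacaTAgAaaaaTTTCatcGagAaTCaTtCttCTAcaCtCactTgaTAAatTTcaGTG
Tsc1, on the plus strand of chromosome 2, has a start of exon 17 that ends in the AG in capitals. Tsc2, on the minus strand of chromosome 17, has exons 26 and 32 that some transcripts skip.
Tsc1 start of exon 17, 15 bases, chr2:28678952-28678966: gctctcctccctcAG
Tsc2 exon 26, 129 bases, chr17:24606224-24606352: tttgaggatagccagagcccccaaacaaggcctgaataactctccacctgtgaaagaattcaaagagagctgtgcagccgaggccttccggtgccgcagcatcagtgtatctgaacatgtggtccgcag
Tsc2 exon 32, 69 bases, chr17:24601389-24601457: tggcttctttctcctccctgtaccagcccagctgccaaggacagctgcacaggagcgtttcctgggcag
The segments not shown are 6 and 51 bases of Fmr1 and 3 bases each of Tsc1 and Tsc2.

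All 9 genes were expressed above 1 TPM in both libraries, at levels between those of Tsc1 and Cyfip2. Cyfip2 (ENSMUSG00000020340.16, chr11:46193850-46312859, minus strand) was the highest, with 201.75 TPM in replicate 1 and 194.02 TPM in replicate 2, a mean of 198 ± 5.47 TPM (SD, n = 2). Its level lay at the 97.8th and 97.7th percentile of the genes that reached 1 TPM in both libraries. Tsc1 (ENSMUSG00000026812.16, chr2:28641228-28691167, plus strand) was the lowest at 18.54 and 17.61 TPM, a mean of 18.1 ± 0.658 TPM (SD, n = 2), at percentiles 61.2 and 60.0. By mean TPM of the gene table the order was Cyfip2, Tsc2, Fxr2, Cyfip1, Fxr1, Mtor, Fmr1, Eif4ebp2 and Tsc1. Among neighbours in that order, Fxr1 and Mtor overlapped in their values over the libraries, and no other neighbouring pair did.

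**Figure D1:**
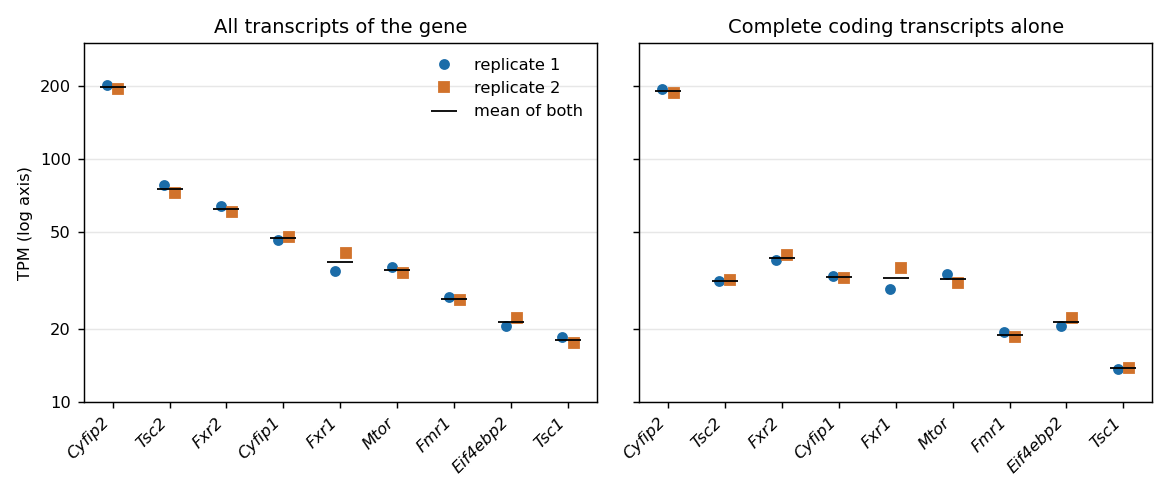
TPM of the 9 genes in replicate 1 (circles) and replicate 2 (squares) with their mean (bar), on a log axis, over all transcripts of a gene (left) and over its complete coding transcripts alone (right). Tsc2 is the second highest gene at a mean of 75.4 TPM on the left and stands beside Cyfip1, Fxr1 and Mtor at 31.7 TPM on the right.

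Within the fragile X family, Fxr2 had the highest level and Fmr1 the lowest. Fmr1 (ENSMUSG00000000838.17, chrX:68678541-68717963, plus strand) had 27.00 TPM (replicate 1) and 26.26 TPM (replicate 2), on 1794.15 and 1849.67 expected counts. Males carry a single copy of this X-linked gene. Fxr1 (ENSMUSG00000027680.15, chr3:34019943-34070322, plus strand), an autosomal paralog whose product also binds RNA, had 34.71 TPM (replicate 1) and 41.12 TPM (replicate 2), on 1569 and 1925 counts. By TPM of the gene table, Fxr1 had the widest relative gap between the libraries among the 9 genes, with a coefficient of variation of 12%. Replicate 2 was the higher. Fxr2 (ENSMUSG00000018765.5, chr11:69632990-69653297, plus strand), the other autosomal paralog, had 64.19 and 60.71 TPM on 2477 and 2662 counts. The second transcript table gave Fxr2 85.31 TPM in replicate 1 and 101.42 TPM in replicate 2, a gap in the other direction. It gave Fxr1 59.37 and 67.80 TPM, and there the relative gap of Fxr2 was the widest among the 9 genes. The TPM ratio of Fxr1 to Fmr1 was 1.29 in replicate 1 and 1.57 in replicate 2, a mean of 1.43 ± 0.198 (SD, n = 2). That of Fxr2 to Fmr1 was 2.38 and 2.31, a mean of 2.34 ± 0.0463 (SD, n = 2). In the second transcript table, these ratios were 1.43 and 1.55 for Fxr1 to Fmr1 and 2.05 and 2.32 for Fxr2 to Fmr1. Which of these ratios varied less between the libraries thus depended on the table.

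Of the CYFIP genes, Cyfip2 exceeded Cyfip1. Cyfip1 (ENSMUSG00000030447.15, chr7:55841745-55932602, plus strand) had 46.68 TPM (replicate 1) and 47.93 TPM (replicate 2), on 3599 and 3650 counts, whereas Cyfip2 rested on 25489 and 25723 counts. The ratio of Cyfip2 to Cyfip1 was 4.32 in replicate 1 and 4.05 in replicate 2, a mean of 4.19 ± 0.194 (SD, n = 2). It was 3.19 and 3.24 in the second transcript table, and 5.82 and 5.27 over protein_coding transcripts alone. Cyfip2 was the higher in all 3 readings, while the size of the gap depended on the transcripts and the table. Exons of Cyfip1 share 1316 bases with those of Nipa2 and 173 bases with those of Gm44616 on the opposite strand, and whether counting used strand is not given in the sources used here.

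Of the genes that hold mTOR back, Tsc2 (ENSMUSG00000002496.10, chr17:24595816-24632630, minus strand), whose product carries the GTPase-activating domain of the complex, had 78.03 TPM (replicate 1) and 72.77 TPM (replicate 2) on 4306 and 4500 counts. Tsc1, whose product stabilises TSC2, rested on 2362 and 2470 counts. The ratio of Tsc2 to Tsc1 was 4.21 and 4.13 over all transcripts, but 2.37 and 2.39 over protein_coding transcripts alone. Mtor (ENSMUSG00000028991.15, chr4:148448611-148557683, plus strand), which encodes the catalytic subunit of both mTOR complexes, had 35.95 and 33.96 TPM on 4772 and 4879 counts. Tsc2 exons share 693 bases with those of Pkd1 on the opposite strand.

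Eif4ebp2 (ENSMUSG00000020091.15, chr10:61428491-61452661, minus strand), which encodes an eIF4E-binding repressor that mTOR inactivates by phosphorylation, had 20.51 TPM (replicate 1) and 22.18 TPM (replicate 2) on 2084 and 2379 counts. Its paralog Eif4ebp1 had 1.28 and 1.66 TPM on 27 and 37 counts. Eif4ebp3 had 2.73 and 2.77 TPM on 36.20 and 38.56 counts, which are uncertain because the gene shares reads with others. The ratio of Eif4ebp2 to Eif4ebp1 was 16.0 and 13.4, against 7.26 and 6.94 in the second transcript table and 58.6 and 48.2 over protein_coding transcripts alone. Eif4ebp2 was the higher in each of these readings, and the size of the ratio rested on the few Eif4ebp1 counts.

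The part of a member's TPM that came from transcripts with a complete coding sequence, whatever its length, differed widely among the 9 genes. The annotation lists 84 transcripts for them, of which 31 have a complete coding sequence and 45 are classed as retained intron, processed transcript or nonsense-mediated decay. Complete coding transcripts took 100% of the TPM of Eif4ebp2 in both libraries, 96.7% and 97.0% of that of Cyfip2, and 93.5% and 90.8% of that of Mtor. They took 84.4% and 87.0% of that of Fxr1, 74.3% and 78.7% of that of Tsc1, and 72.2% and 70.4% of that of Fmr1. For Cyfip1 the share was 71.2% and 67.7%, and for Fxr2 59.7% and 66.4%. Tsc2 was the lowest, at 40.4% in replicate 1 and 43.8% in replicate 2.

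On the count scale the complete coding shares were higher for every member but Eif4ebp2, which stayed at 100%. In replicates 1 and 2 they were 88.7% and 85.7% for Fmr1, 90.8% and 91.6% for Tsc1, and 82.2% and 82.9% for Cyfip1. TPM divides by transcript length, and most non-coding transcripts of Tsc2 and Fxr2 are short. Retained-intron transcripts of Tsc2 took 55.7% of its TPM in replicate 1 and 52.0% in replicate 2, but 12.5% and 11.9% of its counts. Processed transcripts of Fxr2 took 40.3% and 33.6% of its TPM, but 9.21% and 6.89% of its counts. Complete coding transcripts held 83.7% and 84.9% of the Tsc2 counts and 90.8% and 93.1% of the Fxr2 counts. In the second transcript table, retained-intron transcripts took 47.9% and 49.2% of the Tsc2 TPM. Total RNA also holds unspliced precursor, and its part in the retained-intron reads was not tested.

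**Figure D2:**
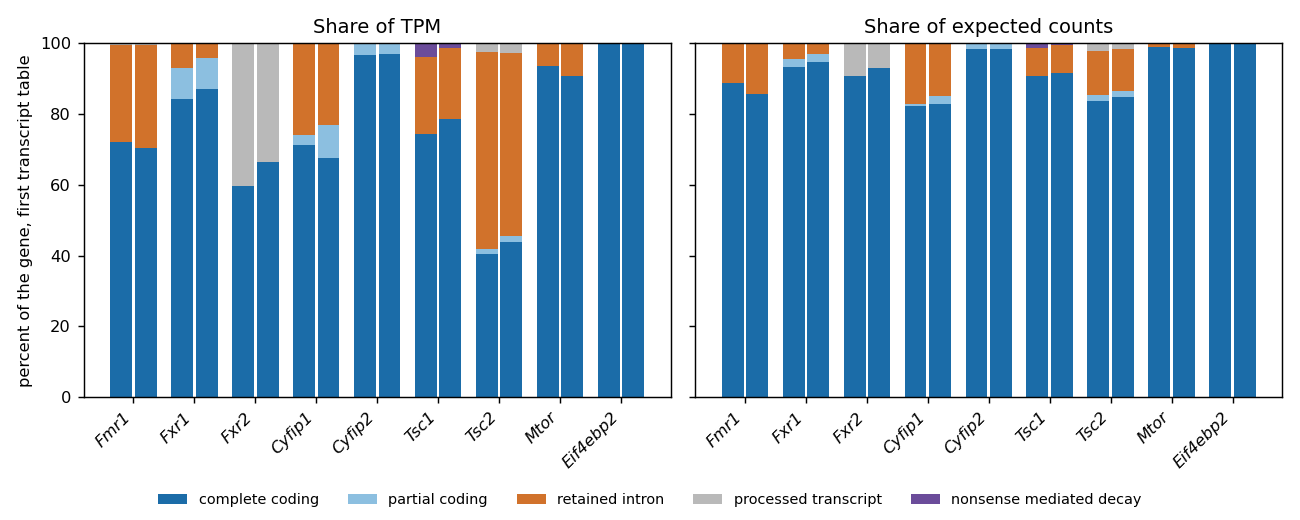
Percent of each gene's TPM (left) and expected counts (right) in each class of annotated transcript, in the first transcript table, with replicate 1 as the left bar and replicate 2 as the right bar of each pair. Retained-intron transcripts fill 55.7% and 52.0% of the Tsc2 TPM bars and 12.5% and 11.9% of its count bars.

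Counting complete coding transcripts alone changed the order of the members. Cyfip2 stayed first with 195.10 TPM in replicate 1 and 188.16 TPM in replicate 2, and Tsc1 stayed last with 13.76 and 13.86 TPM. Tsc2 was the second over all transcripts and the sixth here, with 31.51 and 31.88 TPM. Fxr2 came next to Cyfip2 with 38.35 and 40.30 TPM, followed by Cyfip1 at 33.24 and 32.44, Fxr1 at 29.30 and 35.78, and Mtor at 33.63 and 30.84 TPM. Among these, the neighbours Cyfip1 and Fxr1, Fxr1 and Mtor, and Mtor and Tsc2 overlapped in their values, while Cyfip1 lay above Tsc2 in both libraries. Eif4ebp2 at 20.51 and 22.18 TPM stood above Fmr1 at 19.49 and 18.48 TPM, the reverse of their order over all transcripts. The second table did not show that reversal, with Eif4ebp2 at 26.95 and 30.00 TPM and Fmr1 at 29.52 and 28.59 TPM, values that overlap. There Tsc2 was the fourth by complete coding transcripts, with 48.16 and 50.28 TPM.

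Among Fmr1 transcripts the leading form lacked exon 12 and used the early start of exon 15. That transcript, Fmr1-206, had 54.0% of the gene's TPM in replicate 1 and 48.0% in replicate 2, and Fmr1-202, which carries exon 12 and the later start of exon 15, had 18.2% and 21.2%. Exon 12, which lengthens a loop of an RNA-binding KH domain, was carried by 25.2% and 31.8% of the complete coding TPM. The 75-base start of exon 15, which lies ahead of the RGG box that binds RNA, was carried by 74.8% and 69.9%. The 51 bases at the start of the last exon were listed at 0 in both libraries, and at 2.46% and 0% in the second transcript table.

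The second transcript table gave exon 12 of Fmr1 a larger share, 41.6% in replicate 1 and 51.2% in replicate 2, and the 75 bases of exon 15 a share of 92.3% and 87.7%. It placed 25.7% and 25.4% of Fmr1 in Fmr1-201, which has both segments and which the first transcript table put at 0% and 1.13%. Fmr1-206 had 36.0% and 32.0% there and was the leading transcript in both tables and libraries, while Fmr1-202 had 3.75% and 8.04%. The means of the exon 12 share, 28.5 ± 4.65% in the first table and 46.4 ± 6.78% in the second (SD, n = 2), lay farther apart than the libraries did within a table. The authors' posterior SD of a transcript's count, 62.97 and 78.65 on 1192.11 and 1081.97 counts for Fmr1-206 in the first table, describes the error of that estimate alone.

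The other Fmr1 transcripts at 5% or more in some library or table were the retained-intron forms Fmr1-207, Fmr1-208, Fmr1-212 and Fmr1-213. Fmr1-207 had 6.92% of the gene's TPM in replicate 1 and 6.27% in replicate 2, Fmr1-208 had 9.79% and 6.5%, and Fmr1-212 had 4.68% and 5.68%. Fmr1-213 had 1.85% in replicate 1 and 7.70% in replicate 2, on 21.47 and 91.35 counts. The second table showed a gap in the same direction for Fmr1-213, with 4.26% and 10.03%.

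Fxr1 was spread over several coding transcripts. Fxr1-204, which has the 92-base exon but not the other segments, took 26.3% of the gene's TPM in replicate 1 and 33.4% in replicate 2. Fxr1-208, which has none of the 3 segments, took 30.4% and 28.6%, and Fxr1-201, which has all of them, took 21.6% and 12.2%. Fxr1-206, with the 87-base stretch alone, took 6.19% and 12.9%, and Fxr1-205, whose annotated coding sequence is partial, took 8.56% and 8.83%. No transcript held more than 33.4% of Fxr1 in the first table, and which was the highest differed between the libraries.

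The arginine-rich 81-base exon of Fxr1, a kind of exon best known from the FXR1 of striated muscle, was carried by 25.6% of the complete coding TPM in replicate 1 and 14% in replicate 2. In the second table its share was 37.8% and 32.5%, again higher in replicate 1. Its first-table share rested on 363.35 and 254.82 counts of Fxr1-201, with a posterior SD of 42.48 and 48.25 counts as the authors give it. The 87-base stretch was at 32.9% and 28.8% in the first table and 38.8% and 34.2% in the second. The 92-base exon, whose absence shifts the reading frame of the end of the protein, was at 56.7% and 52.3% in the first table and 58.0% and 55.1% in the second. Of these, the 92-base exon varied least between the tables and the 81-base exon most. The second table also placed 11.4% and 16.1% of Fxr1 in Fxr1-202, which the first listed at 0 in both libraries, and it put Fxr1-201 first with 31.7% and 29.0%.

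Fxr2 has a single annotated complete coding transcript, Fxr2-201, with 59.7% of the gene's TPM in replicate 1 and 66.4% in replicate 2, and 74.4% and 66.5% in the second table. The rest lay in short processed transcripts. Fxr2-204, of 508 bases, had 20.96% and 19.2%, Fxr2-203 had 10.5% and 5.85%, and Fxr2-205 had 4.89% and 3.56%. The second table gave Fxr2-204 6.0% and 13.0%, Fxr2-203 14.9% and 9.75%, and Fxr2-205 2.45% and 9.87%, so the tables divided these reads differently.

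The pair of alternative Cyfip1 exons was used about evenly in the first transcript table, and less evenly in the second. The 148-base exon, carried by Cyfip1-202, had 47.7% of the complete coding TPM in replicate 1 and 44.0% in replicate 2, and the 154-base exon, carried by Cyfip1-201 and Cyfip1-203, had 52.3% and 56.0%. In the second table the 148-base exon had 37.6% and 42.1%, and the 154-base exon 62.4% and 57.9%, so the 154-base exon had the larger share in both tables and libraries. The exons differ by 6 bases, and the coding sequences that hold them are 3753 bases (Cyfip1-202) and 3759 bases (Cyfip1-201 and Cyfip1-203) long. As percent of the gene, Cyfip1-202 had 33.99% and 29.8%, Cyfip1-203 had 29.5% and 30.8%, and Cyfip1-201 had 7.68% and 7.10%. Cyfip1-201 was the minor form of the 154-base exon, with a longer annotated 3′ UTR.

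Other Cyfip1 transcripts at 5% or more in some library or table were short, partial or retained-intron forms. The partial coding Cyfip1-208 had 3.03% and 9.15% in the first table and 12.2% and 12.6% in the second, and Cyfip1-212 was listed at 0 in the first and had 7.37% and 9.17% in the second. The retained-intron form Cyfip1-209 had 4.36% and 2.90% in the first table and 16.1% and 14.6% in the second. Cyfip1-204, Cyfip1-205, Cyfip1-207 and Cyfip1-210, of the same class, each had at most 6.08% in either table and library.

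Cyfip2, the most abundant member, has complete coding transcripts that encode a coding sequence of the same length, 3759 bases, and differ mainly at their 5′ ends. Cyfip2-202, with 91 bases of annotated 5′ UTR, had 82.3% of the gene's TPM in replicate 1 and 84.3% in replicate 2. Cyfip2-205, with 447 bases, had 13.1% and 12.2%, and Cyfip2-201, with 392 bases, had 1.35% and 0.49%. The second table put Cyfip2-202 at 35.8% and 36.4%, Cyfip2-201 at 33.9% and 36.6%, and Cyfip2-205 at 17.9% and 16.3%, and gave the partial coding Cyfip2-204 12.4% and 10.6%, against 3.30% and 3.02% in the first. The libraries lay within 3 percentage points of each other in both tables, while Cyfip2-201 was a trace in the first table and about level with Cyfip2-202 in the second.

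Tsc1 was read mainly as Tsc1-201 and Tsc1-202, which differ in the 15 bases at the start of exon 17. Tsc1-201, with these bases, had 40.9% of the gene's TPM in replicate 1 and 43.5% in replicate 2, and Tsc1-202, without them, had 33.4% and 32.3%. The 15 bases were carried by 55.1% and 58.9% of the complete coding TPM, and by 57.4% and 62.1% in the second table, close to the first. The second table split the rest differently, with 19.7% and 40.7% for Tsc1-201, 13.96% and 3.48% for Tsc1-204 and 7.58% and 0.425% for Tsc1-203. The first table listed Tsc1-203 at 0% in both libraries, and Tsc1-204 at 0% and 2.90%. The retained-intron forms Tsc1-210 and Tsc1-205 had 10.3% and 12.4%, and 6.00% and 6.55%. The decay-prone forms Tsc1-207 and Tsc1-211 were at or below 3.35% in the first table, and at 7.51% and 6.92%, and 5.16% and 5.17%, in the second.

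Each optional exon of Tsc2 was carried by more than 50% of its complete coding TPM in the first table. Exon 26 was carried by 63.3% in replicate 1 and 60.7% in replicate 2, and by 53.0% and 50.2% in the second table. Exon 32 was carried by 56.4% and 54.8%, and by 46.0% and 48.7% in the second table. Both are a whole number of codons long, 43 codons for exon 26 and 23 codons for exon 32, so that leaving either out keeps the frame. Tsc2-217, which has both, was the leading transcript with 22.8% and 24.0% of the gene's TPM, and 17.6% and 19.3% in the second table. Tsc2-201, Tsc2-205 and Tsc2-221, which lack both, had between 3.74% and 6.01% each in the first table and between 0% and 11.4% in the second. The non-coding transcripts at 5% or more in some library or table were Tsc2-204, Tsc2-206, Tsc2-208, Tsc2-209, Tsc2-210, Tsc2-212, Tsc2-214, Tsc2-218 and Tsc2-222. Tsc2-210, of 454 bases, was the highest of these in the first table with 14.6% and 10.6% on 82.93 and 59.29 counts, and it was listed at 0 in the second table. Tsc2-212 had 7.35% and 3.22% in the first table and 17.2% and 13.3% in the second.

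Mtor and Eif4ebp2 each had a leading full-length transcript. Mtor-202, with the 7647-base coding sequence of the kinase, had 73.3% of the gene's TPM in replicate 1 and 76.2% in replicate 2. Mtor-201, a form of 1003 bases with a 768-base coding sequence, had 20.3% and 14.6% of the TPM on 135.47 and 96.70 counts, against 4585.35 and 4724.16 counts for Mtor-202. The second table gave Mtor-202 89.9% and 91.2% and Mtor-201 4.61% and 1.86%. The retained-intron Mtor-204 had 4.18% and 7.15%. Eif4ebp2-201, with 5309 bases of annotated 3′ UTR, had 83.0% of its gene's TPM in replicate 1 and 83.7% in replicate 2, and Eif4ebp2-202, with 980 bases, had 17.0% and 16.3%. Both encode a coding sequence of 360 bases. The second table put Eif4ebp2-201 at 99.9% and 100%, and the shorter form at 0.142% and 0%. By the mean over the libraries, the leading transcript was the same in both tables for 7 of the 9 genes, Fxr1 and Cyfip1 being the exceptions.

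**Figure D3:**
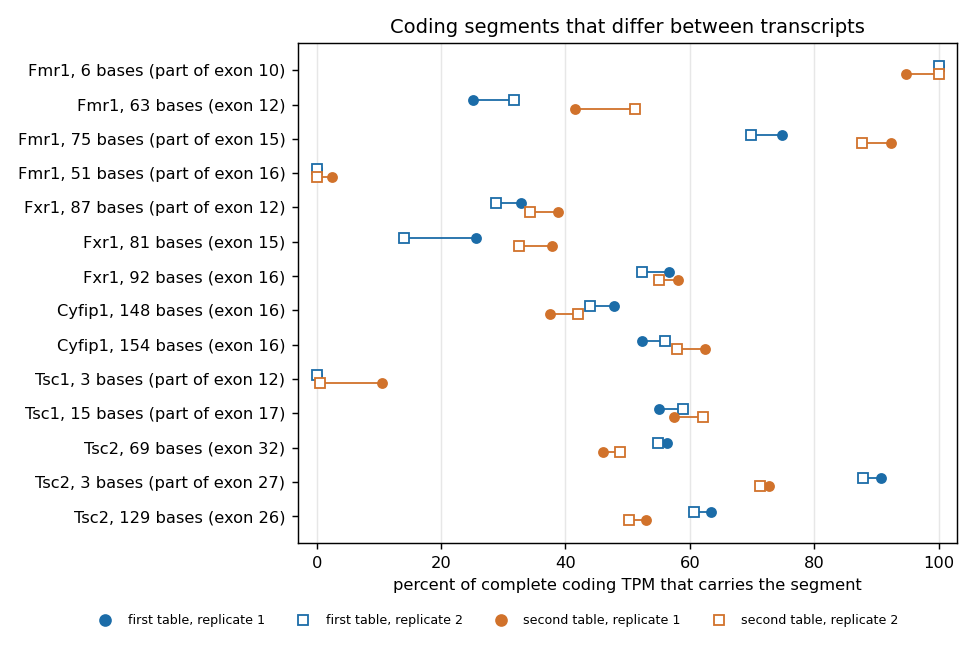
Percent of complete coding TPM that carries each of the 14 coding segments, in the first (blue) and the second (orange) transcript table, for replicate 1 (filled circles) and replicate 2 (open squares), joined by a line within a table. The shares of Fmr1 exon 12 lie at 25.2% and 31.8% in the first table and at 41.6% and 51.2% in the second.

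Between the libraries, the members were compared by the exact two-sided binomial test on counts scaled by TMM, with Benjamini-Hochberg adjustment over all 18270 genes tested, which compares these libraries and not conditions. All 9 members were tested. None of the 9 was called apart, that is at an adjusted p under 0.05 and at least 1.5-fold, against 344 genes or 1.88% of all genes tested. Without the fold minimum, 2 of the 9 passed, both higher in replicate 2, against 11.4% of all genes tested, where 6.52% were higher in replicate 2 and 4.83% higher in replicate 1. At an unadjusted p under 0.05 by the same exact test there were 3 of 9, with Cyfip2 as the third, against 21.8% of all genes tested. With 9 members, 2 calls are too few to be set apart from that background.

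The 2 genes were Fxr1 and Eif4ebp2. Fxr1 was at 0.839-fold in replicate 1 relative to replicate 2 (exact 95% interval 0.785 to 0.898, exact binomial test, adjusted p = 8.78e-06). Eif4ebp2 was at 0.902-fold (interval 0.850 to 0.957, exact binomial test, adjusted p = 0.00808). Intervals cover counting error only. The choroid plexus and dentate granule cell marker sums were also higher in replicate 2, and that of CA1 in replicate 1. Of the 5 choroid plexus markers tested all 5 passed the adjusted p, as did 4 of 4 dentate and 4 of 4 CA1 markers, in those directions, and 2 of 4 astrocyte markers were higher in replicate 2. No choroid plexus marker was at 0 in either library. The part of these markers in the Fxr1 and Eif4ebp2 differences was not tested. Exons of Fxr1 share 178 bases with those of Dnajc19 on the opposite strand, which had 267 and 278.68 counts.

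The other 7 members lay between 0.958-fold (Fxr2) and 1.02-fold (Cyfip2), at adjusted p from 0.143 to 1 by the exact binomial test. Their 95% intervals together ran from 0.907 (Fxr2) to 1.07 (Fmr1), so a difference as large as 1.5-fold lay outside each of them, as far as counting error goes. Cyfip2, with the most counts, had the narrowest interval, 1.00 to 1.04. The sign of the log2 ratio differed between counts scaled by TMM and TPM for 5 of these 7 genes. With ERCC scaling, Cyfip2 and Mtor also changed sign, to -0.0107 and -0.0295. Counts scaled by TMM gave -0.06 for Fxr2, -0.02 for Tsc1, -0.02 for Tsc2, -0.0023 for Fmr1 and 0.02 for Cyfip1. TPM gave 0.08 for Fxr2, 0.07 for Tsc1, 0.10 for Tsc2, 0.04 for Fmr1 and -0.04 for Cyfip1. The effective length that divides the counts differed between the libraries, at 1876.51 and 2033.26 bases for Fxr2 and 2683.57 and 2867.43 bases for Tsc2.

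**Figure D4:**
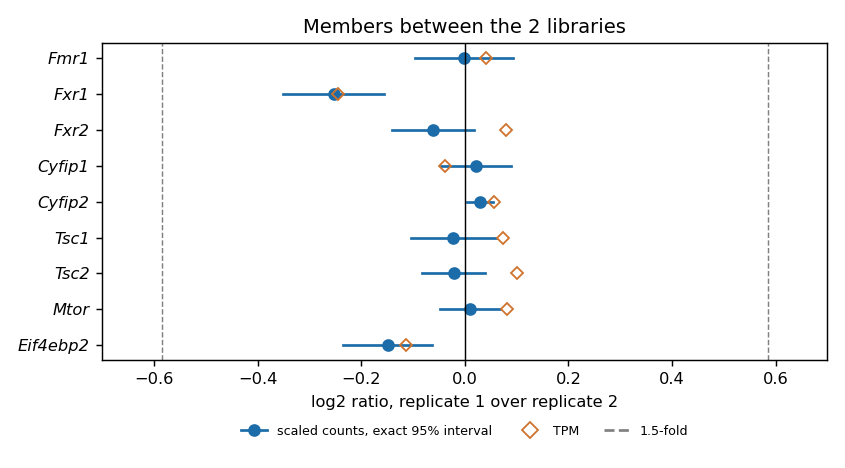
Log2 ratio of replicate 1 over replicate 2 for the 9 genes, from scaled counts with exact 95% intervals (filled circles and lines) and from TPM (open diamonds), with dashed lines at 1.5-fold. Fxr1 and Eif4ebp2 lie left of 0 with their whole interval, and no interval reaches a dashed line.

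The second transcript table gave all 9 members a higher TPM than the gene table, as it did most other genes. The log2 ratio of the gene table over the second transcript table had a median of -0.74 in replicate 1 and -0.77 in replicate 2 over 14410 genes, with quartiles of -0.93 and -0.62 in replicate 1. Of the members, Cyfip1 was the lowest, at -1.13 and -1.04, and Mtor the highest, at -0.30 and -0.38. Eif4ebp2 was at -0.39 and -0.44, and Fxr2 was at -0.41 and -0.74. Both tables put Cyfip2 and Tsc2 first and Mtor, Fmr1, Eif4ebp2 and Tsc1 last, and they differed in the order of Fxr2 and Cyfip1.

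The pathway around the members was described by 10 lists with 108 distinct genes, the members included. All 108 reached 1 TPM in both libraries and were tested. Of the 108 genes, 7 passed the adjusted p higher in replicate 1 and 18 higher in replicate 2. Over all genes tested, 4.83% were higher in replicate 1 and 6.52% in replicate 2. Of the 108 genes, 1 was apart, against 1.88% of all genes tested. These backgrounds, which apply to each list below, take in genes down to a mean count of 10. The exact test calls smaller gaps where counts are higher, and the part of count depth in these numbers was not tested. The median log2 ratio of replicate 1 over replicate 2 was -0.01, against 0.00 over all genes tested.

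In the list of the CYFIP and WAVE complex, 1 of 12 genes passed, higher in replicate 2. It was Nckap1, a scaffold of the complex, with 217.47 and 222.44 TPM (0.964-fold, exact binomial test, adjusted p = 0.00408). Nckap1 and Cyfip2 were the highest of that list, and Rac1, the GTPase that activates the complex, followed with 162.52 and 161.23 TPM. In the list of the TSC complex and Rheb, 0 of 5 passed by the exact binomial test, with an unadjusted p under 0.05 for Tbc1d7 alone. Rheb, the GTPase that activates mTOR, had 45.42 and 44.03 TPM.

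In the list of mTOR complex subunits, 2 of 9 genes passed. Prr5, which encodes a subunit of mTOR complex 2, was apart and lower in replicate 1, with 4.08 TPM in replicate 1 and 6.83 TPM in replicate 2 (138 and 241 counts, 0.590-fold, interval 0.475 to 0.730, exact binomial test, adjusted p = 1.84e-05). Its relative Prr5l went the other way, with 6.49 and 4.24 TPM (242 and 169 counts, 1.47-fold, exact binomial test, adjusted p = 0.00207), just short of the fold minimum. Mtor had the highest TPM of the list, followed by Akt1s1, which encodes an inhibitory partner of mTOR complex 1 (30.58 and 31.87 TPM), and Mapkap1, a subunit of mTOR complex 2 (29.62 and 32.15 TPM). Rptor and Rictor, which define complexes 1 and 2, had 25.70 and 25.72 TPM and 19.75 and 19.04 TPM, and neither passed. They were named after their values were seen.

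Among the kinases and other regulators upstream of TSC, 2 of 10 genes passed, both higher in replicate 2. They were Ddit4, an inducible inhibitor of mTOR (32.22 and 38.05 TPM, 0.831-fold, exact binomial test, adjusted p = 0.000132), and Pik3r1, a regulatory subunit of PI3 kinase (35.57 and 37.21 TPM, 0.923-fold, adjusted p = 0.00464 by the same test). The highest of the list were Akt1 with 60.14 and 61.88 TPM, Pdpk1 with 40.56 and 41.71 TPM, and Akt2 with 40.64 and 40.21 TPM, none of which passed. Of the 18 genes of amino acid sensing at the lysosome, Nprl3 was higher in replicate 1, and Rragd and Castor2 were higher in replicate 2. The highest of that list were Rraga with 55.23 and 50.92 TPM, Lamtor2 with 43.31 and 35.99 TPM, and Rragb with 36.30 and 32.95 TPM, none of which passed.

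Of the 15 genes of the cap-binding complex and its binding proteins, 1 was higher in replicate 1 (Eif4g3, whose log2 ratio changed sign to -0.0044 by TPM) and 4 were higher in replicate 2 (Eif4ebp2, Eif4g2, Mknk2 and Pabpc1). The list was led by the helicase gene Eif4a2 with 368.90 and 356.10 TPM, the scaffold gene Eif4g2 with 258.83 and 277.15 TPM, and Eif4a1 with 143.38 and 139.12 TPM, which shares reads with other genes and is uncertain. Eif4e, the cap-binding protein that Eif4ebp2 holds, had 71.49 and 73.57 TPM and did not pass; it was named after its values were seen. Of the 7 genes of the S6 kinase and elongation branch, Eef2k, which encodes the kinase that inhibits elongation factor 2, was higher in replicate 1 (11.75 and 10.57 TPM, 1.22-fold, exact binomial test, adjusted p = 0.00219). Eef2, the elongation factor itself, was higher in replicate 2 (342.36 and 352.94 TPM, 0.950-fold, adjusted p = 4.58e-06 by the same test). Rps6, which shares reads with other genes, had 157.45 and 162.91 TPM, and Pdcd4 had 48.38 and 45.63 TPM.

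Among 19 RNA-binding partners of dendritic ribonucleoprotein particles, Pura was higher in replicate 1, and Cpeb1 and Nufip2 were higher in replicate 2. Caprin1 with 142.97 and 143.59 TPM, Purb with 103.34 and 101.84 TPM and G3bp2 with 94.21 and 91.15 TPM led the list and did not pass. Among 10 mRNAs known to be bound by FMRP, 2 were higher in replicate 1 (App and Grm5), against 4.83% of all genes tested. Another 4 were higher in replicate 2 (Camk2a, Map1b, Arc and Shank3), against 6.52%. Some of their counts were very high, with 97765 and 108510 for Camk2a and 56741 and 59847 for Map1b. At such counts the exact test calls small gaps, such as 0.976-fold for Map1b. The log2 ratio of Map1b changed sign to 0.0104 by TPM. Nprl3, Eif4g3, Mknk2, Pura and Grm5 each missed the adjusted threshold under at least 1 other scaling, count filter or table. Camk2a had 1346.56 and 1413.95 TPM, App 497.57 and 457.65 TPM, and Dlg4, which did not pass, 358.88 and 361.64 TPM. The gaps that passed in this list lay between 0.805-fold (Arc) and 1.07-fold (App), none at 1.5-fold.

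**Figure D5:**
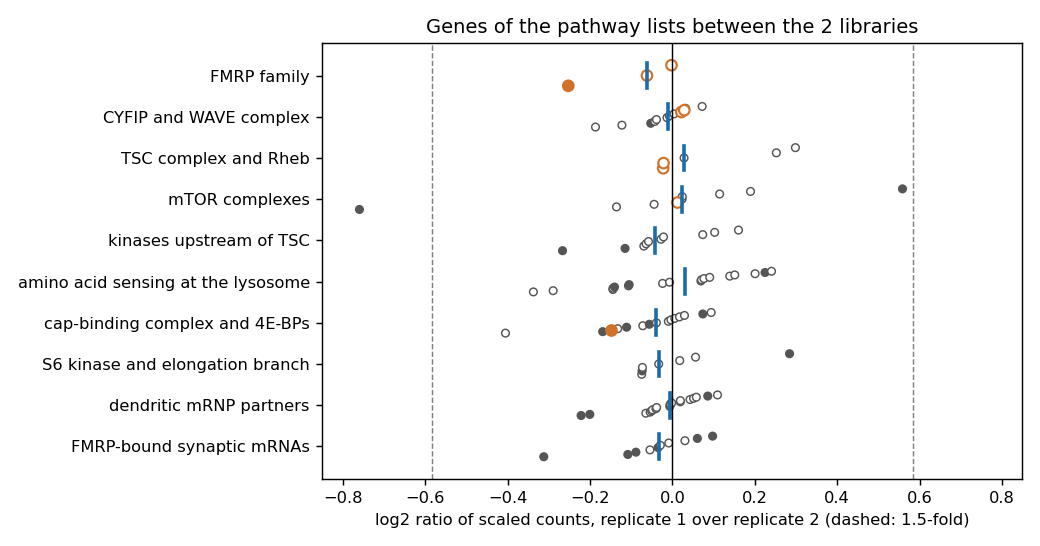
Log2 ratio of replicate 1 over replicate 2 for the genes of the 10 pathway lists, from scaled counts, with members in orange, other genes in grey, genes at an adjusted p under 0.05 filled, the median of each list as a blue bar and dashed lines at 1.5-fold. Prr5 of the mTOR complexes, at -0.76, is the gene beyond a dashed line.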

How the data were processed

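Total RNA from hippocampal tissue was measured in 2 libraries of 1 group, grouped by the labels. The authors deposited a gene table with an expected count and a TPM value for every gene, whose columns are, per the file headers, the ones RSEM writes. Their first transcript table has the same columns, and the authors also give there what percent of its gene each transcript makes up. Their second transcript table, deposited beside it, has the columns kallisto writes, per the file headers: an estimated count and a TPM value for every transcript. Other values used from the authors' gene table were effective length and the posterior standard deviation of a count. Per the description deposited with the files, the reference was mm10 with GENCODE M21, the first tables came from a transcriptome alignment and the second from a FASTQ file. Which aligner, program versions and strand setting were used is not given in the sources used here. Genes with opposite-strand overlaps are therefore uncertain. Reads of a C57BL/6J and CAST/EiJ hybrid were placed on the mm10 reference, and the effect on levels was not tested.

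The members and lists were chosen with earlier results of these data known. Rows for ERCC transcripts (0.421% and 0.408% of all counts in replicates 1 and 2) and for other entries that name no gene (2.75e-05% and 1.68e-05%) were kept out of gene totals and tests. Expected counts were rounded for tests. Libraries were scaled by TMM (edgeR 4.0.16, R 4.3.3), and genes whose expected counts averaged 10 or more were compared by an exact two-sided binomial test (scipy 1.17.1) with Benjamini-Hochberg adjustment. Genes were called apart when the adjusted p was under 0.05 and the fold 1.5 or more. Folds have 0.5 added to each count. Intervals are exact 95% Clopper-Pearson intervals and cover counting error only, since reads are not molecules where no molecular identifiers were used. Genes whose count lay over 0.005 from a whole number, with a posterior standard deviation of 1% of it or more, were taken to share reads; no member was among them. The libraries did not hold the same values, as 2074 of 18270 genes differed beyond counting error by that test. The test takes no account of errors in assigning reads, so it cannot tell a library sequenced again from another library.

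Complete coding transcripts are protein_coding transcripts whose coding sequence is not annotated as incomplete at either end. Segment shares are sums over them. Genes named are the 9 members, their transcripts at 5% or more of the gene in any library or table, and of each pathway list the 3 highest by mean TPM, those apart and those under 1 TPM in both libraries; other genes are named where a count of 5 or fewer passed, or as stated. Some genes are not reported here and were left out of the lists. Marker lists are given as sums. Alternatives were other scalings (DESeq2 1.42.0 size factors, total counts, ERCC counts), other count minimums, no fold minimum and the second table. Others were TPM over protein-coding genes alone, coding transcripts alone and each library alone.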

Additional observations from a re-analysis of the deposited data

How the results depend on the processing

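Against 344 genes apart between the libraries, 112 genes were called in a test of genes with a mean count of at least 100, and 214 in a test that left out genes that share reads; both settings test fewer genes. Without a fold minimum 2074 genes passed, and so did 2 members, against 0 of 9 in every other setting tried. Member ratios between the libraries that changed sign on the log2 scale were Fmr1 by total counts (0.0036), Cyfip1 by ERCC (-0.0178), Cyfip2 by ERCC (-0.0107), and Mtor by DESeq2 size factors (-0.0052), by ERCC (-0.0295) and in the second table (-0.0062); by TPM they were Fmr1 (0.0401), Fxr2 (0.0804), Cyfip1 (-0.0381), Tsc1 (0.0742) and Tsc2 (0.1007). None of these members had passed. Of the other pathway genes past the adjusted p, the log2 ratio changed sign by TPM for Eif4g3 (-0.0044) and Map1b (0.0104). In the second table Fxr2 to Fmr1 was 2.19, Cyfip2 to Cyfip1 3.21, Tsc2 to Tsc1 4.49 and Eif4ebp2 to Eif4ebp1 7.10. Over protein_coding transcripts alone Fxr1 to Fmr1 was 1.89, Fxr2 to Fmr1 2.07, Cyfip2 to Cyfip1 5.55, Tsc2 to Tsc1 2.38 and Eif4ebp2 to Eif4ebp1 53.4, a setting that leaves out retained-intron and processed transcripts. Protein-coding genes held 44.5% and 43.5% of all TPM in replicates 1 and 2. With TPM taken over protein-coding genes alone, mean levels were higher for all 9 members. They went from 26.6 to 60.5 TPM for Fmr1 and from 198 to 449 TPM for Cyfip2. The cause of the differences between tables was not tested. No paired analysis was possible because the libraries form 1 group. The test between libraries could not be made with either library left out. The same settings for those pathway genes, levels limited to complete coding transcripts, and segment shares and paralog ratios by table or library, were settings chosen after seeing the data.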
